A study of Mus musculus with 6 samples.

Results

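Ventral progenitor domain factors were examined in the embryonic mouse midbrain. The set was 10 transcription factor genes, Nkx2-2, Nkx2-9, Sim1, Olig2, Olig1, Nkx6-1, Nkx6-2, Dbx2, Dbx1 and Pax6, out of 18193 genes named on the array. Every probe set annotated to exactly 1 of these symbols was taken, which gave 15 of the 45037 probe sets that were not controls. A probe set is a group of short oligonucleotides on the array that together measure a transcript. The rule for taking probe sets uses no measured value, although the genes were chosen with earlier results of these data known. None of the 15 was left out, because values without an absolute level allow no filter on dim signals.

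The study dissected the floor plate and the ventral lateral region next to it, without overlap, from C57BL/6 embryos of mixed sex at embryonic day 10.5, with no mutation or treatment in either group. There were 3 floor plate samples and 3 ventral lateral samples, and each was a pool of tissue from 6 embryos. For each sample 5 ng of total RNA was amplified and hybridised to an Affymetrix mouse expression array. The deposited values are read here on a log2 scale on which more RNA gives a higher value, and are centred so that the median of each probe set over the 6 arrays is 0.

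In the ventral neural tube, Sonic hedgehog secreted by the floor plate and notochord forms a gradient that switches homeodomain and basic helix-loop-helix factors on or off at different distances from the midline. Factors of neighbouring domains repress each other, which sharpens the borders, and each domain then gives rise to its own class of neuron. The order of domains is best known from the spinal cord. From ventral to dorsal, Nkx2-2 and Nkx2-9 mark the progenitors beside the floor plate, Olig2 marks motor neuron progenitors, the Nkx6 genes cover a broad ventral territory, and Dbx1, Dbx2 and Pax6 reach more dorsal progenitors.

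Centred values show how samples differ in a gene, not how strongly the gene is expressed, so no level can be compared between genes or set against the array's background. Where the groups do not overlap, centring also makes the 2 values nearest to 0, 1 from each region, equal in size and opposite in sign. The labelled tissue was checked against known floor plate genes. Of 16 probe sets for 9 such genes (Foxa2 and Corin among them), 13 were higher and 0 were lower in the floor plate by limma's test (15 and 0 at an unadjusted threshold of 0.05), with a median difference of 1.87 on the log2 scale, and 8 of the 9 genes had a probe set that was higher. Sonic hedgehog itself had no call: its probe set 1436869_at had a log2 difference of 1.76 (adjusted p = 0.0734), and 1427571_at had 0.16 with overlapping groups (adjusted p = 0.56). Whether pools of the 2 regions came from the same embryos is not stated in the labels, which name no batch either, so that p-values reflect just the spread among these samples, which may be technical in part. Fewer cells of a type and less RNA per cell cannot be told apart in such bulk tissue.

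Across all 45037 probe sets limma called 1218 higher (2.7%) and 903 lower (2.01%) in the floor plate at an adjusted p under 0.05. Against these shares, 0 of the 15 member probe sets were called higher and 7 were called lower. The 7 belonged to 5 of the 10 genes, namely Nkx2-2, Olig2, Nkx6-2, Dbx1 and Pax6, and the other 5 genes had no call. At an unadjusted threshold of 0.05 there were 12 member probe sets, 3 of them in the direction of higher values in the floor plate. The median difference of the members was -0.53 on the log2 scale, against -0.0040 over all probe sets. In size, regardless of sign, the median was 1.28 for the members and 0.128 over all. Groups did not overlap, with the floor plate the lower, in 9 member probe sets, against 11% of all probe sets. They did not overlap, with the floor plate the higher, in 3 member probe sets, against 11.5% of all. The counts over all probe sets moved when a sample was left out: 753 higher and 510 lower without floor plate replicate 1, 537 lower without floor plate replicate 3, and, on leaving out a ventral lateral sample, 800 and 562 for replicate 1 and 781 and 594 for replicate 3. The members' count of 0 higher became 2 without ventral lateral replicate 2.

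**Figure D1:**
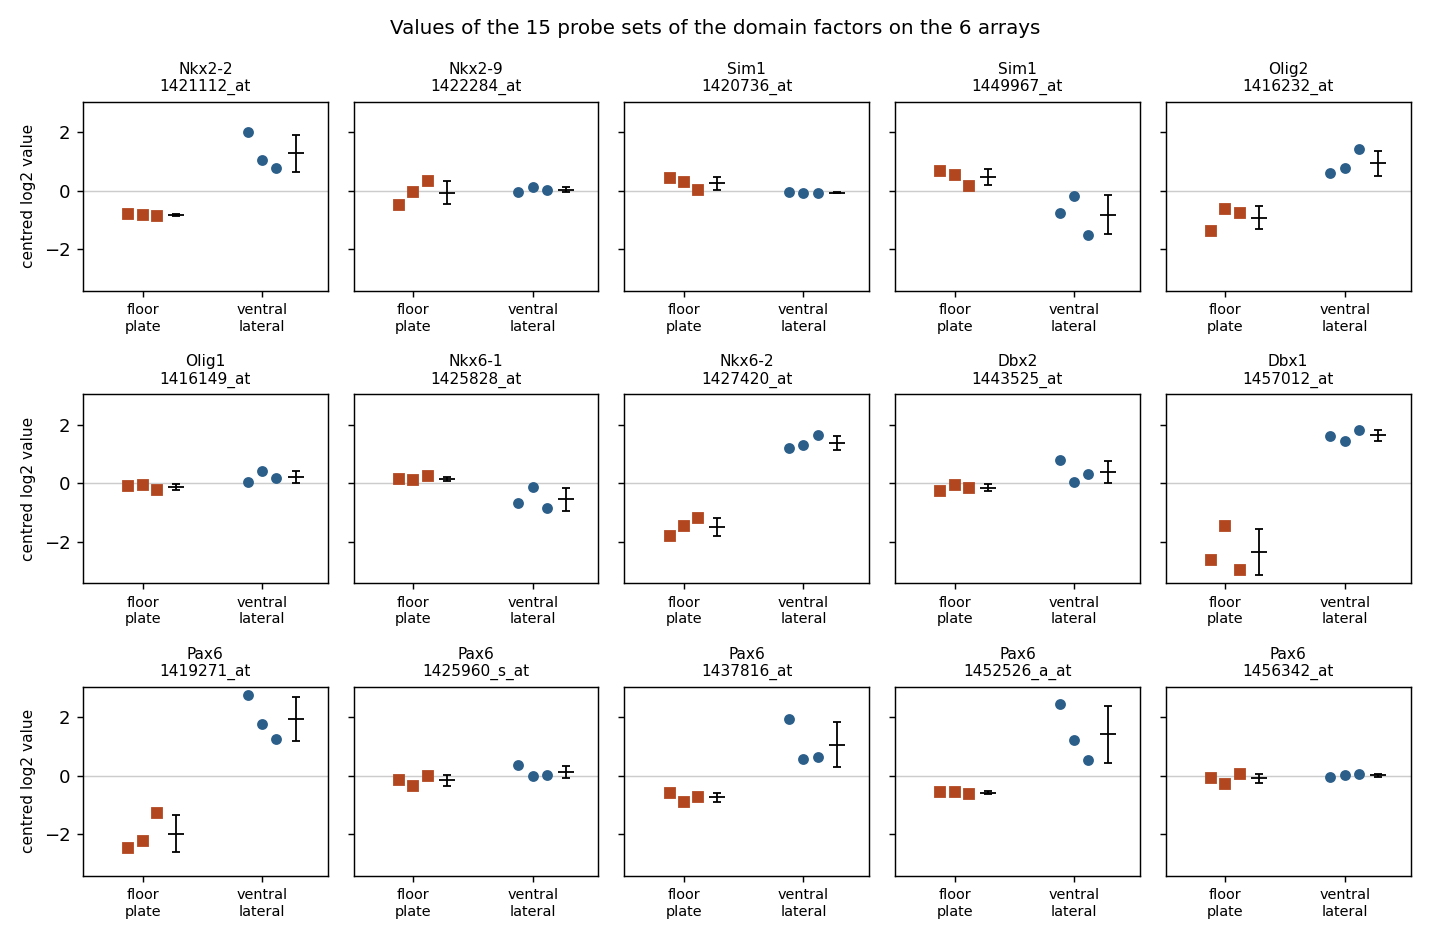
Centred log2 values of the 15 probe sets, 1 panel each in ventral to dorsal order, with squares for the 3 floor plate samples, circles for the 3 ventral lateral samples (replicates 1 to 3 from left to right), and bars for the mean ± SD of each group. Groups stand apart in 12 panels, most widely in Dbx1 and in the Pax6 probe set 1419271_at.

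Promoters of the 2 gene families whose members differed most in their change are shown first. Each runs 5′ to 3′ on the gene's own strand from 250 bases before the annotated start to 50 bases after it, in RefSeq, build GRCm38.p6. Capitals mark matches, on either strand, to CCAAT (the CCAAT box) or TATAAA (the TATA box). Nkx6-1 lies on the minus strand at chr5:101664662-101664961, and the promoter of Nkx6-2 on the minus strand at chr7:139582748-139583047. Dbx1 is on the minus strand at chr7:49636786-49637085, and Dbx2 on the minus strand at chr15:95654722-95655021.
Nkx6-1: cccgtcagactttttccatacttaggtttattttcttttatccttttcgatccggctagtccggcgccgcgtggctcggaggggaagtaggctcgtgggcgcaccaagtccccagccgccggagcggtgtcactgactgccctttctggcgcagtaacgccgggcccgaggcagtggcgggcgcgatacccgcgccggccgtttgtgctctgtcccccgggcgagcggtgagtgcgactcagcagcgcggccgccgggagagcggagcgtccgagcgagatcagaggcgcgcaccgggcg
Nkx6-2: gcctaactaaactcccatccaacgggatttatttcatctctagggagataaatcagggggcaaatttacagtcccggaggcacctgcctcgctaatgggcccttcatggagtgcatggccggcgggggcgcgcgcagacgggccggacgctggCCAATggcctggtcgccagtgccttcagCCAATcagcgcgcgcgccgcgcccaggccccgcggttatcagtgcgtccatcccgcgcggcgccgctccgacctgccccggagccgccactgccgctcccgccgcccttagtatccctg
Dbx1: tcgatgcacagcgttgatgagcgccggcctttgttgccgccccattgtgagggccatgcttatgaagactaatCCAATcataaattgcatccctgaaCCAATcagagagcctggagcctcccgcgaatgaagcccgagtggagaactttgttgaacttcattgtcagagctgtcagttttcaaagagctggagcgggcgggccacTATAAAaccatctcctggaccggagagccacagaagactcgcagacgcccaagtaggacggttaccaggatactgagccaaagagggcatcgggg
Dbx2: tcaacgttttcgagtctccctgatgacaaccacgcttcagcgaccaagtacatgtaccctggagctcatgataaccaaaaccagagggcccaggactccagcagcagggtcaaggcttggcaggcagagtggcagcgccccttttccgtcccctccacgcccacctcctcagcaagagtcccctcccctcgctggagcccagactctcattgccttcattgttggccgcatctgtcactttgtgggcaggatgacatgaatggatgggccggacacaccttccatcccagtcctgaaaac
The GC content was 67.3% in Nkx6-1 and 66.7% in Nkx6-2, and 54% in Dbx1 and 57.7% in Dbx2. Nkx6-2 and Dbx1 each held 2 matches to CCAAT, and Dbx1 also held TATAAA. Nkx6-1 and Dbx2 held neither. Elsewhere in the set, Olig2, called lower in the floor plate, held both, and Nkx2-2, also called lower, held neither. Of the 2 Pax6 promoters, 1 held CCAAT. Sim1, which had no call, held 2 matches to TATAAA. A link between these matches and the differences in expression was not tested. The table had 10 promoters for 9 of the 10 members, with 2 for Pax6. CCAAT was found in 4 of the 10, against 37.4% of all 32851 promoters, and TATAAA in 3, against 13.6%. An NK2 family motif, CACTTNA, was in 1 of the 10 (Nkx2-2, the gene of such a factor), against 11.5% of all. The Gli motif GACCACCCA (0.253% of all promoters), the forkhead motif TGTTTAC (3.65%) and the homeodomain core TAATTA (5.29%) had 0 matches in these 10 windows. All motifs were searched on both strands, and none of the 6 contains another. A match describes letters in this window and is not a binding site.

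Nkx2-2 encodes a homeodomain repressor that specifies the progenitors nearest to the floor plate. Its probe set 1421112_at had centred log2 values of -0.79, -0.83 and -0.85 in the floor plate samples and 2.0, 1.07 and 0.79 in the ventral lateral samples. All 3 floor plate values were lower than any ventral lateral value and lay close together (mean ± SD -0.82 ± 0.03, against 1.29 ± 0.64, n = 3 each). The difference was -2.11 (SE 0.28), which is 4.32-fold lower in the floor plate (adjusted p = 0.0057). Leaving out each sample in turn kept the call, with differences from -2.36 to -1.75.

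Nkx2-9, its close relative with an overlapping domain, had no call in its 1 probe set. Centred values do not show whether this probe set detected the transcript. Probe set 1422284_at read -0.47, -0.03 and 0.32 in the floor plate, against -0.03, 0.14 and 0.03 in the ventral lateral region. The groups overlapped, with floor plate samples at both the lowest and the highest value. The difference of -0.10 had a 95% interval from -0.54 to 0.34 (adjusted p = 0.858), and its sign turned to a difference of 0.10 without floor plate replicate 1.

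Sim1 encodes a basic helix-loop-helix PAS factor that, in the spinal cord, marks neurons born from the Nkx2-2 domain. Its probe set 1449967_at had 0.69, 0.56 and 0.16 in the floor plate, against -0.77, -0.16 and -1.50 in the ventral lateral region. The groups did not overlap, but ventral lateral replicate 2 and floor plate replicate 3 came near to each other. The difference was 1.28 (SE 0.31), or 2.43-fold, with a 95% interval from 0.55 to 2.01 and an adjusted p of 0.0698, which missed the threshold. Without ventral lateral replicate 2 it was 1.60 and passed (adjusted p = 0.0184). The other probe set, 1420736_at, had 0.46, 0.30 and 0.03 in the floor plate, against -0.03, -0.06 and -0.09 in the ventral lateral region. It too was separated, at a smaller difference of 0.32 (interval 0.03 to 0.61, adjusted p = 0.258). With 1 value per gene, and so fewer tests to adjust for, Sim1 passed when both probe sets were averaged (0.80, adjusted p = 0.0417) and by the probe set of largest variance (adjusted p = 0.0454), and not by the lowest-numbered probe set (0.32, adjusted p = 0.217). Sim2, its paralog, had probe sets at 2.43 (adjusted p = 0.0839) and 1.17 (adjusted p = 0.0568), neither past the test.

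Olig2, the basic helix-loop-helix factor that specifies motor neuron progenitors, was lower in the floor plate. Probe set 1416232_at had -1.38, -0.62 and -0.75 in floor plate samples, against 0.62, 0.78 and 1.43 in ventral lateral samples. The groups stood apart, with floor plate replicate 1 lowest and ventral lateral replicate 3 highest. The difference was -1.86 (SE 0.26), a 3.63-fold lower signal (adjusted p = 0.00723, from 0.0152 to 0.0265 with a sample left out).

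Olig1, which is better known from oligodendrocyte precursors and lies next to Olig2 in the genome, had a much smaller difference. Its values were -0.10, -0.04 and -0.22 in the floor plate, against 0.04, 0.43 and 0.20 in the ventral lateral region (1416149_at). The groups did not overlap, yet the difference of -0.35 (95% interval -0.63 to -0.06) missed the threshold (adjusted p = 0.207). Oligodendrocyte precursors are not yet formed at this stage of development. Of 11 probe sets for 4 of their marker genes limma called 0 in either direction, with 0 also at an unadjusted threshold of 0.05. As the values are centred, these counts do not show whether such cells were present.

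Nkx6-1, a homeodomain factor of a broad ventral territory that promotes motor neuron fate, had 0.13, 0.11 and 0.24 in the floor plate, against -0.68, -0.11 and -0.85 in the ventral lateral region (1425828_at). Each floor plate value was above each ventral lateral value. The difference was 0.71 (SE 0.18, interval 0.28 to 1.14), and it missed the threshold (adjusted p = 0.0856). It passed without ventral lateral replicate 2, at 0.93 (adjusted p = 0.00895).

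Nkx6-2, its paralog, moved the other way and had the smallest adjusted p of the set. Probe set 1427420_at had -1.80, -1.44 and -1.20 in the floor plate, against 1.20, 1.32 and 1.66 in the ventral lateral region. The groups were far apart compared with the spread in either (mean ± SD -1.48 ± 0.30, against 1.40 ± 0.24, n = 3 each). The difference was -2.88 (SE 0.18), or 7.35-fold lower in the floor plate (adjusted p = 0.0003).

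Dbx1 encodes a homeodomain factor of progenitors at the border between the ventral and dorsal neural tube, and it had the largest difference of all 15 probe sets. Probe set 1457012_at had -2.61, -1.46 and -2.95 in the floor plate, against 1.62, 1.46 and 1.84 in the ventral lateral region. The ventral lateral samples lay close together, and floor plate replicate 2 was the nearest to them. The difference was -3.98 (SE 0.35), or 15.8-fold lower in the floor plate (adjusted p = 0.000943), which ranked 19 among all probe sets ordered from the most negative difference.

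Dbx2, whose spinal cord domain includes that of Dbx1 and extends beyond it, had -0.27, -0.04 and -0.14 in the floor plate, against 0.80, 0.04 and 0.31 in the ventral lateral region (1443525_at). The groups did not overlap, and ventral lateral replicate 1 stood highest. The difference of -0.53 (SE 0.19, interval -0.97 to -0.09) missed the threshold (adjusted p = 0.204). It ranged from -0.70 to -0.32 with a sample left out, and the smallest size, -0.32, came without ventral lateral replicate 1.

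Pax6, a paired-box and homeodomain factor that high hedgehog signalling represses, was measured by 5 probe sets that gave different answers. In probe set 1419271_at the floor plate samples had -2.46, -2.23 and -1.27, against 2.75, 1.78 and 1.27 in ventral lateral samples. The groups were separated, with ventral lateral replicate 1 highest. The difference was -3.92 (SE 0.42), or 15.1-fold lower in the floor plate (adjusted p = 0.00236), and it passed with any sample left out (0.00372 to 0.0168).

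The next Pax6 probe set, 1452526_a_at, which Affymetrix designed against several transcripts of the gene, had -0.55, -0.55 and -0.62 in the floor plate, against 2.47, 1.23 and 0.55 in the ventral lateral region. It was 3.97-fold lower in the floor plate (difference -1.99, SE 0.42, adjusted p = 0.0395). Probe set 1437816_at had -0.58, -0.89 and -0.71 in the floor plate, against 1.95, 0.58 and 0.66 in the ventral lateral region. It was 3.45-fold lower (difference -1.79, SE 0.34, adjusted p = 0.0267). In both, the groups were separated and ventral lateral replicate 1 stood well above the other 2. These 2 calls were fragile, although the differences in the fits that lost them ran from -2.08 to -1.96 for 1452526_a_at and from -1.86 to -1.71 for 1437816_at, close to the values with all samples. The call of 1452526_a_at was lost when ventral lateral replicate 2 (adjusted p = 0.0812) or floor plate replicate 1 (0.127), 2 (0.0959) or 3 (0.114) was left out, and that of 1437816_at on leaving out floor plate replicate 1 (0.0862), 2 (0.0802) or 3 (0.0819).

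The remaining Pax6 probe sets showed overlapping groups. In 1425960_s_at, the values were -0.12, -0.36 and 0.01 in the floor plate, against 0.38, -0.01 and 0.02 in the ventral lateral region, a difference of -0.29 (interval -0.63 to 0.05, adjusted p = 0.398). In 1456342_at they were -0.06, -0.27 and 0.06, against -0.04, 0.04 and 0.05, a difference of -0.11 (interval -0.37 to 0.16, adjusted p = 0.729). The 5 Pax6 differences thus ran from -3.92 to -0.11, all of 1 sign, with 3 past the test. Where the 5 lie in the transcript was not analysed here. The antisense transcript Pax6os1, which overlaps the gene's locus, had a difference of -0.18 (adjusted p = 0.627).

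**Figure D2:**
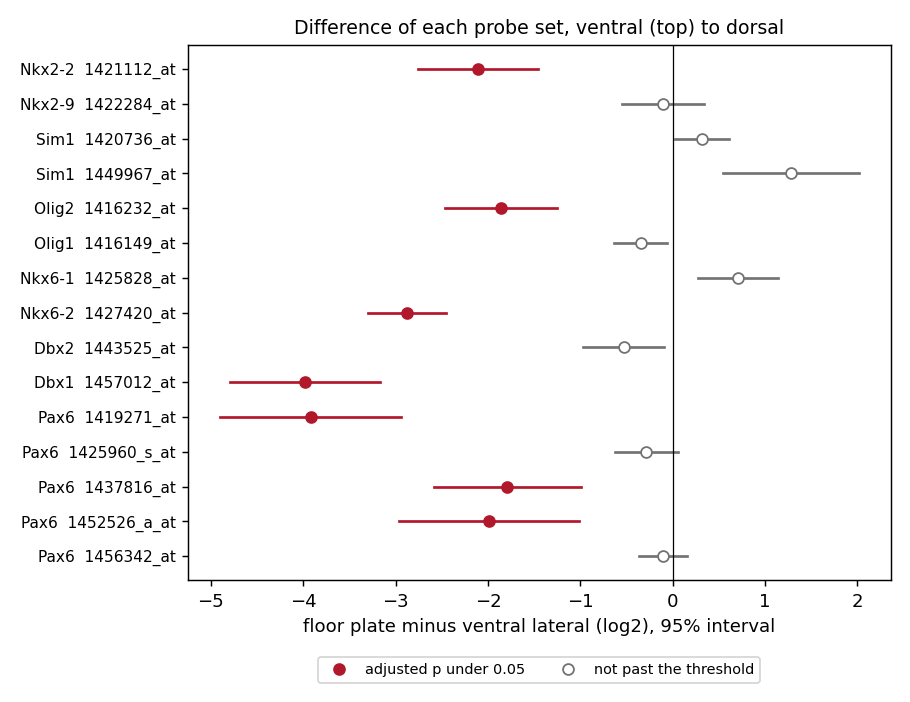
Difference between floor plate and ventral lateral means (log2, floor plate minus ventral lateral) for each probe set from ventral at the top to dorsal at the bottom, with the 95% interval and filled circles for an adjusted p under 0.05. The 7 filled circles lie between -3.98 and -1.79, and the 3 positive differences are the 2 of Sim1 and that of Nkx6-1.

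Of the 15 member probe sets, 4 were more than 4-fold lower in the floor plate, against 0.255% of all probe sets. More than 2-fold lower were 7 of the 15, against 1.03% of all, and these 7 were those called lower. Calls were spread over the ventral to dorsal order: the ventral Nkx2-2 and the dorsal Dbx1 and Pax6 were all lower, and Nkx2-9, Nkx6-1 and Dbx2 were not called. The count held 4 genes with every probe set lower (Nkx2-2, Olig2, Nkx6-2 and Dbx1), Pax6 with some, and 5 with none.

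The set contains 4 pairs of paralogs, and in each pair only 1 gene was called. To compare the 2 genes directly, the value of the second gene was subtracted from that of the first within each array, which gives a difference in centred log2 values. Nkx6-1 minus Nkx6-2 was 1.93, 1.56 and 1.44 in the floor plate, against -1.88, -1.44 and -2.52 in the ventral lateral region. The regions therefore differed by 3.59 (SE 0.35). Dbx1 minus Dbx2 was -2.34, -1.42 and -2.81 in the floor plate, against 0.82, 1.42 and 1.53 in the ventral lateral region, and the regions differed by -3.45 (SE 0.47). Nkx2-2 minus Nkx2-9 was -0.32, -0.81 and -1.17 in the floor plate, against 2.03, 0.93 and 0.76, with a difference of -2.01 (SE 0.47). Olig2 minus Olig1 was -1.28, -0.58 and -0.53 in the floor plate, against 0.58, 0.35 and 1.23, with a difference of -1.51 (SE 0.36). In all 4 pairs the floor plate and ventral lateral values did not overlap. The exact permutation test, two-sided, gave p = 0.1 for each pair, also after adjustment over the 4 pairs, and 0.1 is the smallest p that 3 against 3 arrays allow. This test could therefore not reach 0.05 for any pair, whatever the size of the difference. In sign, the 2 genes' own differences were opposite for Nkx6-1 and Nkx6-2 and the same in the other 3 pairs. Each gene of these pairs was measured by 1 probe set. Probe sets of 1 gene can differ widely, as the 5 of Pax6 did (-3.92 to -0.11). The part of probe response in the differences between paralogs was not tested.

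**Figure D3:**
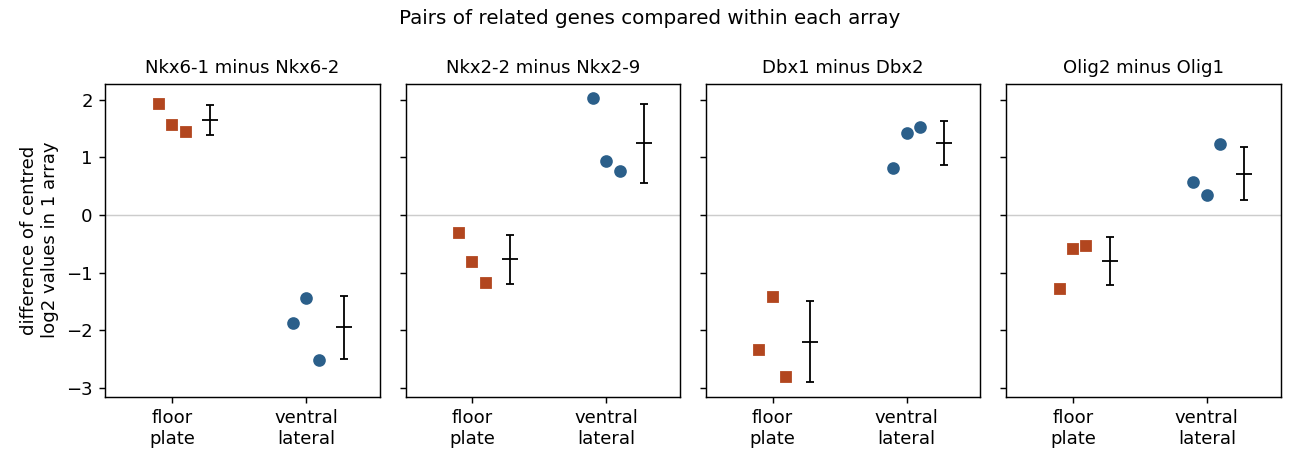
Value of the first gene minus that of the second within each array, in centred log2 units, for the 4 pairs of paralogs, with squares for the 3 floor plate samples, circles for the 3 ventral lateral samples and bars for the mean ± SD of each group. The regions do not overlap in any pair, and Nkx6-1 minus Nkx6-2 is the pair with positive values in the floor plate.

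The ventral lateral samples were not alike, and the sample that stood highest differed between members. Among the 7 probe sets called lower in the floor plate, ventral lateral replicate 1 was the highest in 4 (Nkx2-2 and the 3 of Pax6) and replicate 3 in 3 (Olig2, Nkx6-2 and Dbx1). Some sample must be highest in every probe set, and the 3 of Pax6 measure 1 gene, so these counts do not establish groups of genes. Among the probe sets without a call, the highest sample was replicate 1, 2 or 3. Pax6 is also strongly expressed in the diencephalon, which borders the midbrain. Of 19 probe sets for 12 marker genes of the diencephalon and hypothalamus, limma called 8 lower and 0 higher in the floor plate (9 and 1 at an unadjusted threshold of 0.05), with calls in 4 genes (Six3, Tcf7l2, Barhl2 and Emx2) and a median difference of -0.70. Their mean centred value was -0.72, -0.35 and -0.73 in the floor plate samples and 0.63, 0.46 and 0.36 in the ventral lateral samples. The ventral lateral order, replicate 1 above 2 above 3, was that of Nkx2-2 and of Pax6 1419271_at and 1452526_a_at. The mean of 10 neuronal genes had this order too (0.28, 0.15 and -0.14), so it is not particular to the diencephalon and hypothalamus list. The part of diencephalic tissue in the differences of Nkx2-2 and Pax6 was not tested.

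Genes of the dorsal (alar) midbrain were also lower in the floor plate. Of 24 probe sets for 11 such genes, limma called 13 lower and 0 higher (17 and 0 at an unadjusted threshold of 0.05), in 7 genes, at a median difference of -0.99. Their mean was -0.73, -0.57 and -0.75 in the floor plate, against 0.59, 0.64 and 0.87 in the ventral lateral region. Replicate 3 was therefore highest, as for Olig2, Nkx6-2 and Dbx1. Ventral lateral replicate 3 was also highest in the means of the hindbrain (0.26), surface ectoderm (0.24) and oligodendrocyte precursor (0.098) markers. Floor plate markers averaged 0.87, 0.97 and 0.94 in the floor plate, against -1.37, -0.79 and -1.82 in the ventral lateral region. Ventral lateral replicate 2 was therefore the sample nearest to the floor plate in these markers. It was also the highest of the 3 for Sim1 1449967_at and Nkx6-1, with replicate 3 the lowest in both. The other Sim1 probe set, 1420736_at, was highest in replicate 1. Olig1 and Nkx2-9, whose differences were negative, were highest in replicate 2 as well. The part of dorsal or floor plate tissue in the members' values was not tested.

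Lists for other cell types differed in their calls, against 2.01% lower and 2.7% higher over all probe sets. Of 22 probe sets for 10 general neural progenitor genes, 5 were lower (3 of them those of Pax6) and 1 was higher, with a median of -0.15. The others lower were of Sox1 (-2.83) and Sox3 (-0.98), whose second probe sets had no call (-0.29 and -0.34). For 10 neuronal genes, limma called 1 of 22 probe sets lower (Stmn2, -0.66) and 0 higher (9 and 1 at an unadjusted threshold of 0.05), with a median of -0.29. Mesenchyme and neural crest genes had 1 of 29 probe sets higher (Twist1, 2.11), endothelium had 1 of 9 lower (Cldn5, -0.68), and hindbrain (15 probe sets), blood (16) and surface ectoderm (15) had 0 called by limma in either direction. At an unadjusted threshold of 0.05 these last 3 lists had 1, 1 and 1 probe sets higher and 4, 0 and 2 lower.

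The chromosomal neighbours of the members were read as well. In the gene order of the RefSeq table, 14 of the 18 genes beside a member had probe sets, 33 in all. Limma called 2 higher and 1 lower, against 2.7% higher and 2.01% lower over all probe sets. Nav2, a neuron navigator gene beside Dbx1, had 1 of its 8 probe sets 2.49-fold lower in the floor plate (1441353_at, adjusted p = 0.0389). Further Nav2 probe sets, at -0.66, -0.75, -0.97 and -0.99, had separated groups but no call. The rest overlapped, at -0.67, 0.02 and 0.04. Gpat3, an enzyme of glycerolipid synthesis beside Nkx6-1, was 2.35-fold higher (adjusted p = 0.0384). Rcn1, a calcium-binding protein gene beside Pax6, was 1.63-fold higher in 1 of 2 probe sets (1417090_at, adjusted p = 0.00647), opposite to Pax6 itself. Elp4, on the other side of Pax6, had differences of 0.17 and -0.06 with no call.

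Other factors that pattern the same axis changed in both directions. Of 35 probe sets for 23 of these genes, 9 were higher (in 8 genes) and 10 lower (in 7 genes), with a median of 0.20. Higher in the floor plate were Lmx1b (3.72) and Lmx1a (3.71), LIM homeodomain factors of dopaminergic progenitors, the homeodomain factors Msx1 (3.53) and Msx2 (2.43), and Foxa1 (2.70), a forkhead factor of the floor plate. Pax3, a dorsal paired-box factor, fell by 2.99. A second probe set of Msx1 had a difference of 0.44 and no call (adjusted p = 0.0673), and a second of Msx2 had 0.61 (adjusted p = 0.149).

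Relatives and partners of the members were mostly without a call. Of 49 probe sets for 23 genes, limma called 8 lower and 0 higher (9 and 7 at an unadjusted threshold of 0.05), in 3 genes: Pax3, Pax7 (-2.14) and Tle4 (-1.82), the last a Groucho corepressor of the kind that Nkx and Pax proteins recruit. The median was -0.03.

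The hedgehog pathway, which places the domains, had 14 of 32 probe sets lower and 1 higher, with 6 of 13 genes lower and a median of -0.21. The transcriptional effectors Gli2 (-3.43), Gli3 (-2.99) and Gli1 (-2.28) were lower in the floor plate. So were the ligand-binding antagonist Hhip (-3.08) and the co-receptors Gas1 (-1.59) and Boc (-1.57). Gli3 and Boc each also had a probe set without a call, at 0.03 and 0.25. The probe set called higher was that of Cdon (0.75), another co-receptor, named here after its value was seen.

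Genes of the neurons that arise from the ventral domains were called lower or not at all, as the members were. Of 40 probe sets for 26 genes, limma called 18 lower and 0 higher (20 and 6 at an unadjusted threshold of 0.05), with 12 genes lower and a median of -0.50. The 6 with the largest differences all belong to GABAergic neurons: the enzymes Gad1 (-4.56) and Gad2 (-3.91), the vesicular transporter Slc32a1 (-4.48), and the transcription factors Gata2 (-4.41), Gata3 (-4.11) and Tal1 (-4.09). Named beyond these 6, the other genes called lower were Lhx1 (-3.02), Tal2 (-2.91), Pou4f1 (-2.27), Evx1 (-1.25), Lhx5 (-0.92) and Sox14 (-0.80). Whether the decrease was particular to GABAergic neurons was not tested. The other Slc32a1 probe sets had overlapping groups and no call, at -0.64, -0.36 and -0.17. Factors of motor neurons had no call in either direction and did not all differ alike. Phox2a was at 1.92 (adjusted p = 0.0838) and Lhx4 at 2.05 (adjusted p = 0.104), both chosen after their values were seen. The second Lhx4 probe set had 1.46 with overlapping groups (adjusted p = 0.189). Isl1 had 1.43 and 1.43, Mnx1 had 0.35, Lhx3 had 0.03 and 0.08, and Isl2 had -0.78. In limma's test over all probe sets 2.01% were lower, against 18 of 40 here, 14 of 32 in the hedgehog list and 7 of 15 members.

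**Figure D4:**
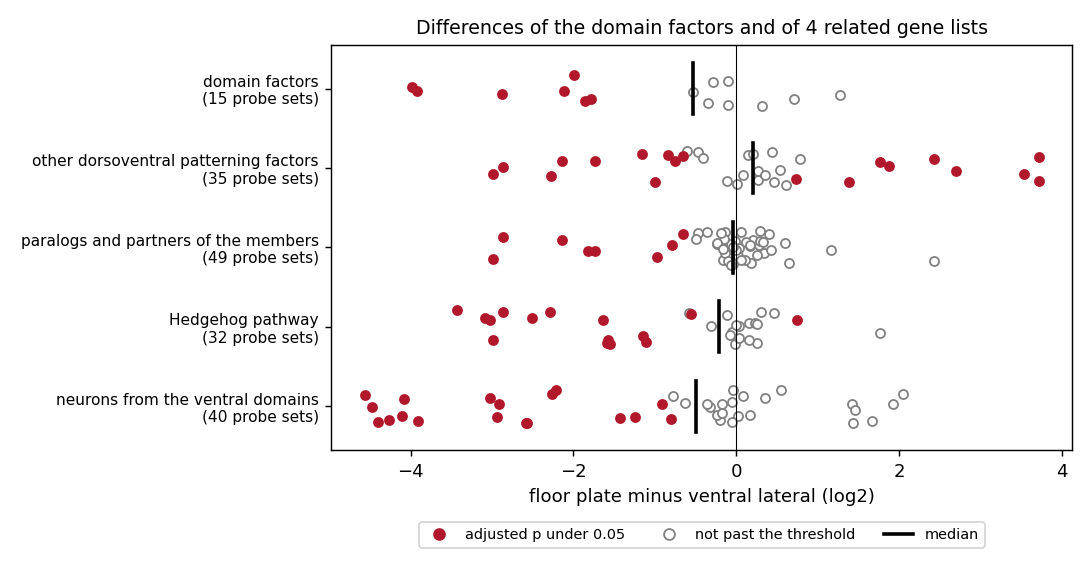
Differences (log2, floor plate minus ventral lateral) of the probe sets of the domain factors and of 4 related lists, with filled circles for an adjusted p under 0.05 and a bar at the median of each list. Filled circles lie on both sides of 0 for the other dorsoventral factors and, for the neurons from the ventral domains, on the negative side.

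The genes whose profile over the 6 arrays was nearest to that of Dbx1 were found by the root mean square difference of centred log2 values. They were Ndnf, a secreted neurotrophic factor gene (0.353), Gad2 (0.420) and Pappa2, a protease gene (0.472). This compares 6 samples of 2 regions and is a description of them. No member was called higher, so no gene was sought in that direction.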

How the data were processed

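Per the labels' protocols, RNA of 3 floor plate and 3 ventral lateral pools went through NuGEN Ovation amplification and biotin labelling. The deposited values are RMA values, per the submitters' processing notes, and no version is given in the sources used here. They were centred: each probe set had a median within 1e-06 of 0 over the 6 arrays. The deposited log2 values were used as given. The log base, the direction and the centring are not stated, and a log2 scale that increases with RNA was assumed. Array medians lay between -0.0030 and 0.0045. Differences had a median SE of 0.127, a precision limited by the number of arrays. No 2 arrays held more than 0.406% identical values.

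Probe sets were named with GEO's platform annotation: of 45101, 64 were controls, 34945 had 1 gene symbol, 932 had several and 9160 had none. The difference of floor plate minus ventral lateral was fitted for the 45037 others in R 4.3.3 with limma 3.58.1 (lmFit, eBayes), without covariates, with Benjamini-Hochberg adjustment over all of them and a threshold of 0.05. The fit was tested on simulated data. Paralogs were compared within arrays with an exact permutation test. Every probe set was tested on its own, because choosing the most variable probe set of a gene favours the one that differs. Promoters came from a RefSeq table of build GRCm38.p6, whose gene order gave the neighbours. Python 3.11.15 with pandas 2.3.3, scipy 1.17.1 and matplotlib 3.10.9 was used for names, motifs and plots.

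The members, the other lists and the tests were all chosen with earlier results of these data known. All members are named. From each other list up to 6 genes with a probe set past the threshold were named by largest difference, and for the member with the largest called difference in each direction the 3 nearest profiles. Exceptions are given as such. List genes without a probe set of 1 symbol were not analysed here. Alternatives were quantile normalization, centring of arrays, a replicate block, array weights, probe set filters, 1 value per gene, a threshold of 0.01 and leaving out each sample. Filters on dim probes and other background corrections could not be run on centred values.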

Additional observations from a re-analysis of the deposited data

How the results depend on the processing

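Limits: with 3 pools per region, centred values and no stated batch, neither absolute levels nor a difference smaller than the spread between pools could be read, and the count of members called lower depends on 2 Pax6 probe sets near the threshold. Quantile normalization, centring of arrays, array weights, probe set filters and gene symbol filters left 7 member probe sets lower and 0 higher in limma's test. The count of members lower ranged from 5 to 7 with a sample left out and was 5 at an adjusted p under 0.01. The count of members higher, 0, became 1 with probe sets averaged by gene, 1 with the probe set of largest variance and 1 with the replicate block, each time Sim1, and ranged from 0 to 2 with a sample left out. The replicate block was added although the labels do not say whether same-numbered pools belong together. The correlations of same-numbered pools' deviations were 0.0096, 0.125 and 0.114, and those of other-numbered pools ran from -0.149 to 0.0274. Floor plate replicate 1 correlated best with ventral lateral replicate 3 (0.0274). These few correlations cannot decide whether the numbers pair the samples. Under the replicate block 1062 probe sets were higher, 842 were lower, and Sim1 1449967_at had an adjusted p of 0.0223. Over all probe sets, the count was 679 higher and 497 lower with the lowest-numbered probe set of each gene, where fewer features were tested, and 584 and 373 at an adjusted p under 0.01. With a sample left out it ranged from 753 to 991 higher and from 510 to 743 lower. The Nkx2-9 difference of -0.10 reversed to 0.103 without floor plate replicate 1 and ranged from -0.29 to 0.10 with a sample left out. The cause of these changes was not tested.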
